A study of Mus musculus with 10 samples.

Results

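The genes described here are 9 genes of the pancreatic acinar cell, measured in RNA that was labelled as liver. They are Cpa1, Cela2a, Ctrc, 2210010C04Rik, Pla2g1b, Gp2, Cuzd1, Reg2 and Ptf1a, and 16 probe sets of the array carry their names, out of 11868 tested probe sets and 5928 measured genes. The genes were chosen by measured values of these arrays together with their known site of expression: Cpa1, Gp2 and Cuzd1 had been called different between groups in earlier results, and the other 6 were added as acinar genes of the same table. Their differences between groups, their order of pools and the calls counted below are therefore given as descriptions and not as tests. The question addressed is whether the 5 groups take the same order for each gene, as carried-over pancreatic tissue would give.

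Liver RNA of male mice was hybridised to the Affymetrix MG_U74Cv2 array, which measures transcripts with sets of short probes. In TgSREBP-1a and TgSREBP-2 mice a transgene supplied human SREBP-1a or SREBP-2 in its active nuclear form, the form in which these transcription factors switch on fatty acid and cholesterol synthesis. Both lines and their wild-type littermates (SREBP wild type) were aged 12 to 16 weeks, and for 2 weeks their diet had been high in protein and low in carbohydrate. Scap-/- mice lack SCAP, the protein that escorts SREBPs to the Golgi, in liver through the interferon-inducible MX1-Cre. The Scap-/- animals and the wild types of that study (Scap wild type) were aged 10 to 12 weeks, were kept on chow and received 4 injections of polyinosinic-polycytidylic acid, and their livers were taken 14 days after the last one. The promoter driving the transgenes is not given in the sources used here. Each group was 1 pool of equal RNA aliquots from 5 mice (20 µg in all) and each pool was hybridised to 2 arrays, giving 10 arrays of 5 pools. Standard deviations (SD) and standard errors (SE) below are thus those of hybridisations of a pool, not of mice. The p-values and calls likewise set 1 pool against 1 pool and hold no spread between pools or mice. Whether 1 mouse or all 5 of a pool carried a transcript cannot be told apart.

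Acinar cells make up most of the exocrine pancreas and fill their granules with digestive enzymes and inactive precursors of enzymes, which reach the duodenum through the pancreatic duct. The transcription factor PTF1A, bound with an E protein and with RBPJ or its acinar relative RBPJL, switches on many of these genes through a paired element of an E-box and a TGGGAA box. The pancreas lies against the duodenum and the common bile duct, close to the liver, and hepatocytes are not a usual source of these transcripts. In bulk RNA of this kind, fewer cells of a type and less RNA per cell cannot be told apart.

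The 5 genes with at least 1 probe set whose pool means spanned 1 log2 unit or more are shown with the 250 bases before their annotated start, since these genes carry the differences between the pools described below. The sequences are from RefSeq (GRCm38.p6). All 9 genes matched the RefSeq annotation, and 8 of them, all but Ctrc, had an upstream sequence. They cover chr6:30638968-30639217 (plus strand) for Cpa1, chr7:119459273-119459522 (minus strand) for Gp2, chr7:131322293-131322542 (minus strand) for Cuzd1, chr6:78404905-78405154 (plus strand) for Reg2 and chr6:41035510-41035759 (minus strand) for 2210010C04Rik. Reg2, with a span of 1.02, was the gene just inside that limit, and Ctrc, with 0.998, was the gene just outside it. Capitals mark CANNTG, the E-box, and TGGGAA on either strand (TTCCCA when it lies on the other strand).
Cpa1: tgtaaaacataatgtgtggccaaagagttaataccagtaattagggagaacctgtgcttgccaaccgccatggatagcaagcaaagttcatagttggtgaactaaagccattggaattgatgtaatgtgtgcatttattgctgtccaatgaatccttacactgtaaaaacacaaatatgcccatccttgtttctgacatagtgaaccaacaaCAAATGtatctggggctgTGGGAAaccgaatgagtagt
Gp2: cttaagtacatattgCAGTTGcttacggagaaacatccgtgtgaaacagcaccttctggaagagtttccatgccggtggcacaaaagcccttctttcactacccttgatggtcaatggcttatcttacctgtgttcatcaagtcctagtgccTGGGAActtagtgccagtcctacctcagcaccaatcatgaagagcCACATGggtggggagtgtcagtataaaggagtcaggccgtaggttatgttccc
Cuzd1: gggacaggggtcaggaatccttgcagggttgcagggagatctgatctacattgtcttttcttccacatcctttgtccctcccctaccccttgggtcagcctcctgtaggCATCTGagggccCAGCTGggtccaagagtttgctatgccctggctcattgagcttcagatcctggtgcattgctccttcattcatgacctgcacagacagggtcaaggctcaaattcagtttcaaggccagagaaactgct
Reg2: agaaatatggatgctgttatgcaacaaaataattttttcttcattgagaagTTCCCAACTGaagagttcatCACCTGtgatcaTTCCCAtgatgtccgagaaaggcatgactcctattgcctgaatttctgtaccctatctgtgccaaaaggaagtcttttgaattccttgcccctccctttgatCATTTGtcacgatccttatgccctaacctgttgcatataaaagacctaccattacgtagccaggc
2210010C04Rik: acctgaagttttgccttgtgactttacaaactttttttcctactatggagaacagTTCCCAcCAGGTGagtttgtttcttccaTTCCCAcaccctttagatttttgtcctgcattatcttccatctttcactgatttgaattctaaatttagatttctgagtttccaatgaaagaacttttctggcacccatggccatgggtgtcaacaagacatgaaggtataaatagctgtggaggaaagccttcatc
The Cpa1 sequence holds the 2 motifs 12 bases apart, with 14 bases between the TGGGAA and the start of the gene. In Gp2 the nearest pair is 39 bases apart, in 2210010C04Rik it is 1 base apart, and in Reg2 a TTCCCA shares its last 2 bases with an E-box. Cuzd1 holds 2 E-boxes and no TGGGAA. Of the 8 genes with a sequence, 6 held CANNTG, 6 held TGGGAA and 5 held both, whereas 66.2%, 21.6% and 14.8% of 32851 upstream sequences of the same length did. A match of these letters is a description and shows no binding.

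The arrays resembled each other closely. The array medians were 4.69 to 4.77 on the log2 scale, and the 2 arrays of a pool correlated with r = 0.992 to 0.995 across probe sets. The deposited values ran from 2.17 to 13.3 and carry no detection calls, so a low signal may be background. Of 25 hepatocyte genes listed, 8 were measured, among them Fga, the fibrinogen alpha chain, at pool means of 8.38 to 9.41, and Tdo2, tryptophan dioxygenase, at 7.65 to 7.80. Others of the 8 read lower, among them Hsd17b4 at 4.75 to 4.95 and Serpina1a at 3.23 to 3.58. The hepatocyte genes were not all steady between pools. Pool means ran from 7.54 to 9.63 for Abcg8, 5.22 to 6.45 for Klb, 5.61 to 7.17 for Lbp and 7.06 to 8.98 for Serpina11. Scap, Srebf1 and Srebf2 have no probe set here, so neither the deletion nor the transgenes could be checked. Pmvk, phosphomevalonate kinase of the cholesterol pathway, had on the brighter of its probe sets pool means of 9.43 in TgSREBP-2, 9.31 in TgSREBP-1a, 7.71 in Scap wild type, 6.38 in SREBP wild type and 5.98 in Scap-/-. Its 2 transgenic pools stood together at the top, which was not the order of the acinar genes. The 18S ribosomal control probe set for the 3' end ranged from 7.19 to 9.88 over the arrays and was higher on the second array of every pool, where the 3' probe sets of Gapdh and beta-actin were lower. These controls thus moved between duplicates. The 3' probe set of beta-actin also differed between groups, with 12.09 and 11.83 on the TgSREBP-1a arrays and 11.61 or less on all others. The part of the controls in the differences below was not tested.

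Cpa1 showed the widest range of the 9 genes: it was high in the TgSREBP-2 and SREBP wild type pools, intermediate in Scap wild type, and low in Scap-/- and TgSREBP-1a. The same 5 pools in that order, from high to low, were taken by Gp2, and 5 further probe sets of Cuzd1, Reg2, Ctrc, Pla2g1b and 2210010C04Rik kept 9 of the 10 pairs of pools in it. The 4 probe sets of Ptf1a spanned at most 0.25 log2 units between pools and had 5 to 8 pairs. The plot of the log2 signal on each array shows all 16 probe sets.

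**Figure D1:**
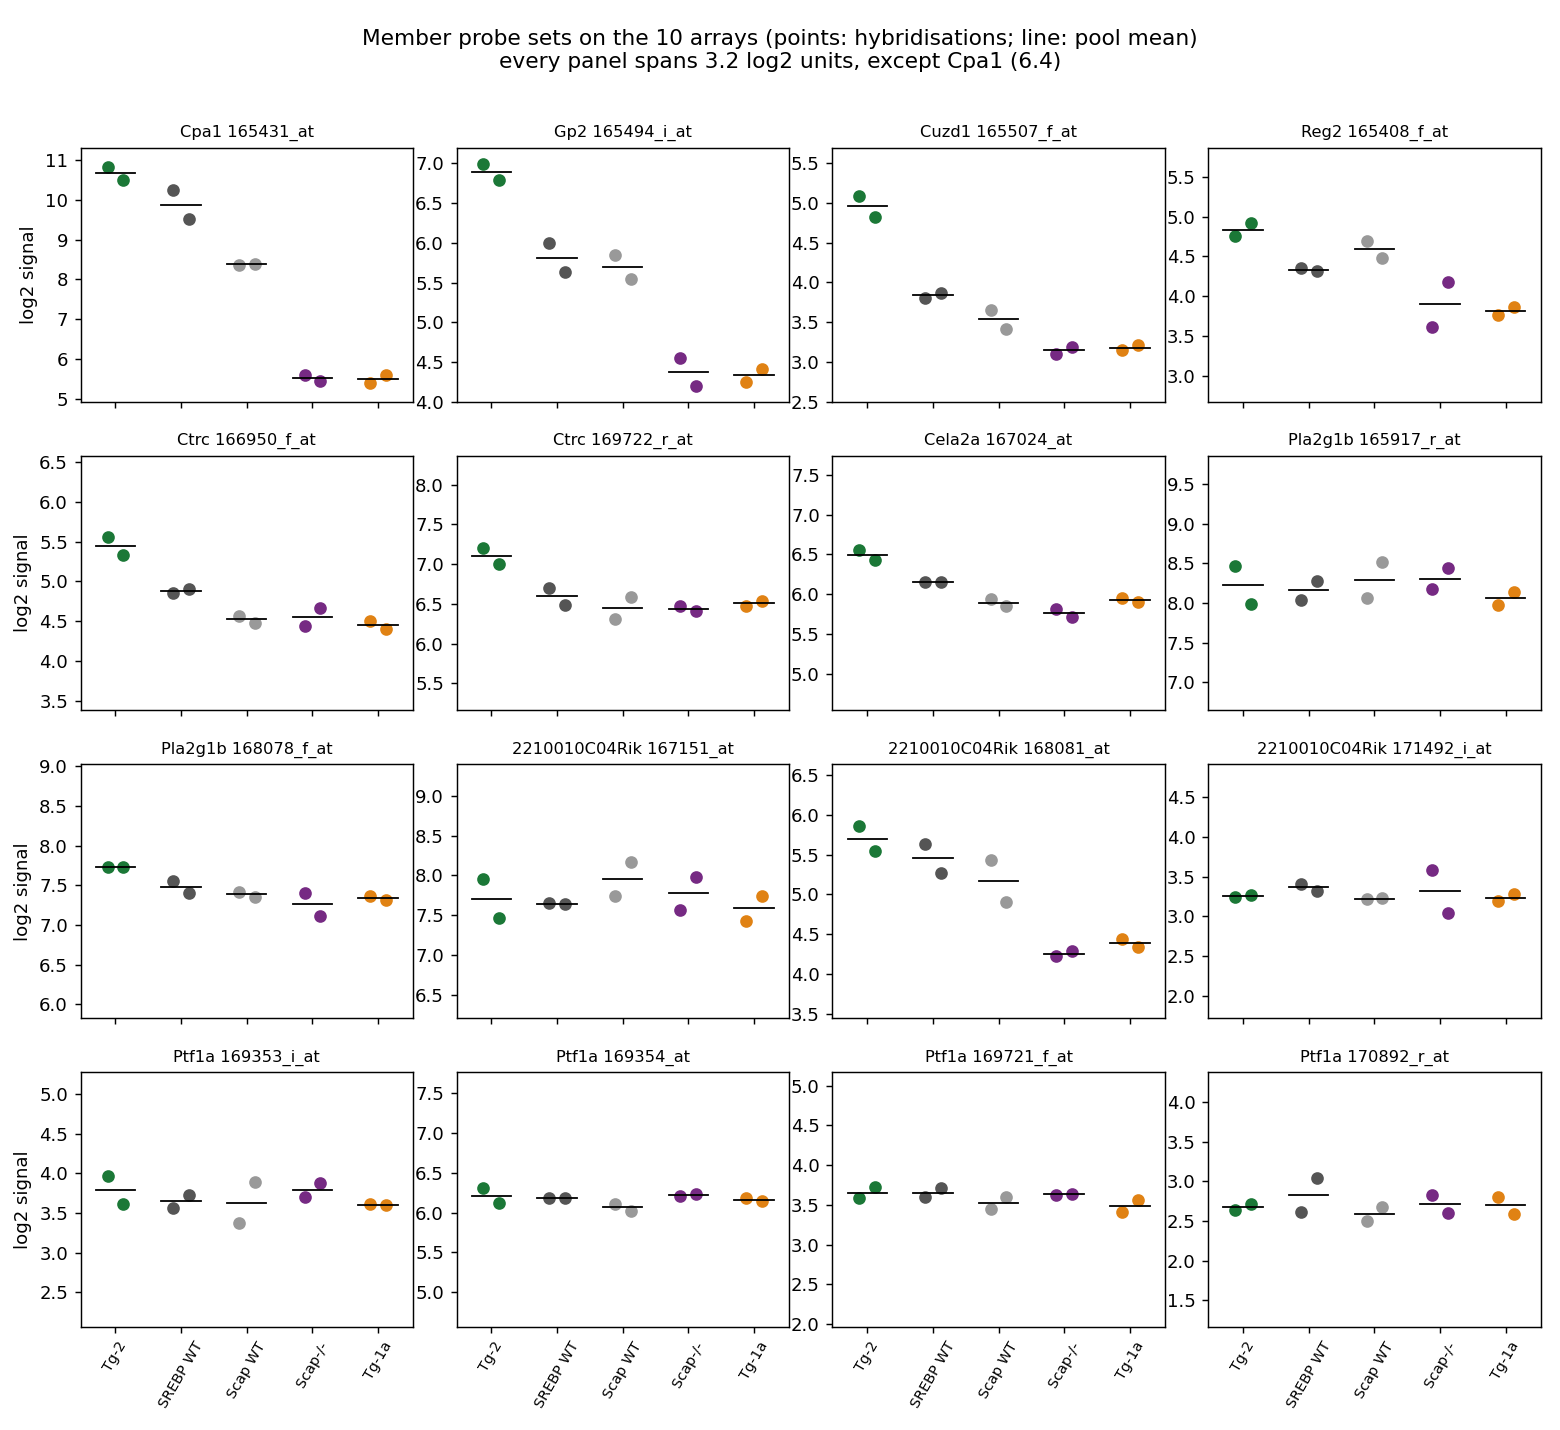
Log2 signal (vertical axis) of the 16 member probe sets on the 10 arrays, with 1 point per hybridisation and a line at the mean of each pool; Tg-2 and Tg-1a are TgSREBP-2 and TgSREBP-1a, WT is wild type, and every panel spans the same height except Cpa1, whose panel spans 2 times as much. Cpa1 falls from a pool mean of 10.67 to 5.49, while the Ptf1a probe sets stay within 0.25 of a log2 unit.

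Cpa1 encodes carboxypeptidase A1, a zinc protease that removes amino acids from the end of dietary peptides. Its probe set, 165431_at, read 10.84 and 10.49 on the TgSREBP-2 arrays, 10.25 and 9.53 on the SREBP wild type arrays, and 8.37 and 8.39 on the Scap wild type arrays. It read 5.59 and 5.45 on the Scap-/- arrays and 5.38 and 5.60 on the TgSREBP-1a arrays. The first 3 pools did not overlap with any other, and the last 2 overlapped, with means of 5.52 ± 0.10 and 5.49 ± 0.16 (SD, n = 2 hybridisations). TgSREBP-1a was lower than TgSREBP-2 by a difference of -5.18 ± 0.20 (log2, SE), a ratio of signals of 36.1-fold. Against its wild type the difference was -4.39 ± 0.20 (21.0-fold) for TgSREBP-1a and 0.78 ± 0.20 for TgSREBP-2, whose 2 comparisons share the SREBP wild type arrays. Scap-/- differed from Scap wild type by -2.86 ± 0.20 (7.25-fold). The 2 wild-type pools, which differ in study, diet, age and injections, differed by -1.50 ± 0.20 (2.84-fold), Scap wild type being lower. The duplicates of the SREBP wild type pool differed by 0.72, and 46 probe sets (0.388% of all) had duplicates of that pool differing as much or more.

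Cela2a encodes a pancreatic elastase, another secreted protease. Its probe set, 167024_at, read 6.56 and 6.43 in TgSREBP-2, 6.16 and 6.16 in SREBP wild type, 5.94 and 5.85 in Scap wild type, 5.81 and 5.72 in Scap-/-, and 5.95 and 5.90 in TgSREBP-1a. The TgSREBP-2 and SREBP wild type arrays stood above all others, whereas the TgSREBP-1a arrays overlapped with those of Scap wild type and lay above those of Scap-/-. The span between pools was 0.73 log2 units, against 5.18 for Cpa1, and TgSREBP-1a differed from TgSREBP-2 by -0.57 ± 0.10 (log2, SE).

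Ctrc encodes chymotrypsin C in many mammals, an enzyme that helps to activate and degrade other zymogens, and RefSeq lists the mouse gene as a transcribed pseudogene. Its probe set 166950_f_at read 5.56 and 5.34 in TgSREBP-2, 4.85 and 4.91 in SREBP wild type, 4.57 and 4.47 in Scap wild type, 4.43 and 4.67 in Scap-/-, and 4.50 and 4.40 in TgSREBP-1a. The second, 169722_r_at, read 7.21 and 7.00 in TgSREBP-2, 6.70 and 6.48 in SREBP wild type, and 6.31 to 6.58 on the 6 other arrays. Both placed TgSREBP-2 above every other array; the first also placed SREBP wild type above the remaining 3 pools, which overlapped. TgSREBP-1a differed from TgSREBP-2 by -0.998 ± 0.11 and -0.60 ± 0.12 on the 2 probe sets, and Scap-/- differed from Scap wild type by 0.03 ± 0.11 and -0.01 ± 0.12. The suffix _f_at marks probes that may match several related transcripts, and _r_at and _i_at mark probe sets that missed some of the maker's selection rules.

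2210010C04Rik is a protein-coding gene of the mouse trypsinogen cluster, whose members encode precursors of the protease trypsin and resemble each other in sequence, so its signals may include its relatives. Its probe set 168081_at read 5.86 and 5.54 in TgSREBP-2, 5.63 and 5.27 in SREBP wild type, 5.43 and 4.90 in Scap wild type, 4.22 and 4.29 in Scap-/-, and 4.44 and 4.33 in TgSREBP-1a. The first 3 pools overlapped with their neighbours in the order and all stood above the last 2. Scap-/- differed from Scap wild type by -0.91 ± 0.18, and TgSREBP-1a from SREBP wild type by -1.07 ± 0.18. The gene's other probe sets did not follow: 167151_at had pool means of 7.59 to 7.95 and 171492_i_at of 3.22 to 3.36. On 167151_at the highest pool was Scap wild type, and on 171492_i_at it was SREBP wild type.

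Pla2g1b encodes the pancreatic phospholipase A2, secreted as a proenzyme that cuts fatty acids from dietary phospholipids. Its probe set 168078_f_at read 7.73 and 7.73 in TgSREBP-2, 7.55 and 7.41 in SREBP wild type, 7.42 and 7.36 in Scap wild type, 7.41 and 7.12 in Scap-/-, and 7.37 and 7.32 in TgSREBP-1a. TgSREBP-2 stood above all other arrays, SREBP wild type overlapped with Scap wild type, and the span was 0.47 log2 units. The brighter probe set of the gene, 165917_r_at, had pool means of 8.06 to 8.30, its highest pool was Scap-/-, and its duplicates differed by up to 0.48.

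Gp2 encodes the main glycoprotein of the zymogen granule membrane. Its probe set, 165494_i_at, read 7.00 and 6.79 in TgSREBP-2, 5.99 and 5.64 in SREBP wild type, 5.84 and 5.55 in Scap wild type, 4.55 and 4.19 in Scap-/-, and 4.25 and 4.41 in TgSREBP-1a. It is the 1 probe set of the other 15 with all 10 pairs of pools in the order of Cpa1. The pools formed 3 levels, since the 2 wild-type pools overlapped, as did Scap-/- and TgSREBP-1a. TgSREBP-1a differed from TgSREBP-2 by -2.56 ± 0.16 (log2, SE; 5.90-fold) and from SREBP wild type by -1.48 ± 0.16. TgSREBP-2 differed from SREBP wild type by 1.08 ± 0.16, Scap-/- from Scap wild type by -1.32 ± 0.16, and Scap wild type from SREBP wild type by -0.12 ± 0.16. The 2 low pools lay under the array medians, where background makes up more of a signal.

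Cuzd1 encodes a protein with CUB and zona pellucida domains that is found at the zymogen granule membrane. Its probe set, 165507_f_at, read 5.09 and 4.83 in TgSREBP-2, 3.81 and 3.86 in SREBP wild type, 3.65 and 3.42 in Scap wild type, 3.10 and 3.19 in Scap-/-, and 3.15 and 3.21 in TgSREBP-1a. TgSREBP-2 stood apart at the top, the 2 wild-type pools followed without overlap, and the last 2 pools overlapped near the bottom of the scale of the array. TgSREBP-2 differed from SREBP wild type by 1.12 ± 0.12 and TgSREBP-1a by -0.66 ± 0.12. Scap-/- differed from Scap wild type by -0.39 ± 0.12.

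Reg2 encodes a regenerating protein, a small secreted lectin-like protein of acinar cells, and its probe set may match other members of the Reg family. The probe set, 165408_f_at, read 4.75 and 4.92 in TgSREBP-2, 4.35 and 4.32 in SREBP wild type, 4.69 and 4.48 in Scap wild type, 3.62 and 4.18 in Scap-/-, and 3.77 and 3.86 in TgSREBP-1a. It placed Scap wild type above SREBP wild type, by 0.25 ± 0.16, and this was its 1 departure from the order of Cpa1. The Scap-/- arrays differed from each other by 0.56 and enclosed those of TgSREBP-1a. TgSREBP-1a differed from TgSREBP-2 by -1.02 ± 0.16, and Scap-/- from Scap wild type by -0.69 ± 0.16.

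Ptf1a encodes the acinar transcription factor itself, which is also needed for the formation of the pancreas. Its probe set 169354_at, the brightest of 4, read 6.30 and 6.12 in TgSREBP-2, 6.18 and 6.19 in SREBP wild type, 6.11 and 6.02 in Scap wild type, 6.21 and 6.23 in Scap-/-, and 6.18 and 6.14 in TgSREBP-1a. Scap-/- had the highest mean and Scap wild type the lowest, 0.15 log2 units apart, and the TgSREBP-2 arrays enclosed those of 3 other pools. On 169353_i_at the pool means were 3.60 to 3.79, on 169721_f_at 3.49 to 3.65 and on 170892_r_at 2.58 to 2.83. All 4 probe sets had higher means in Scap-/- than in Scap wild type, by 0.11 to 0.16, where those of Cpa1 and Gp2 were lower. The difference between TgSREBP-1a and TgSREBP-2 was -0.19 to 0.02. Transcription factor messages are usually far rarer than those of secreted enzymes, and at signals such as these a small difference may not be detectable.

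The deviations of each pool from the mean of the 5 pools set the 16 probe sets side by side. TgSREBP-2 exceeded that mean by 2.68 for Cpa1, 1.47 for Gp2 and 1.23 for Cuzd1. TgSREBP-1a lay below it, at -2.50 for Cpa1, -1.09 for Gp2 and -0.55 for Cuzd1. Scap-/- lay at -2.47, -1.05 and -0.59 for the same genes, so these 2 pools were alike in them. The pools differ in genotype, diet, age and injections. For Gp2 and Cuzd1 both pools lay under the array medians, where a low signal may be background.

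**Figure D2:**
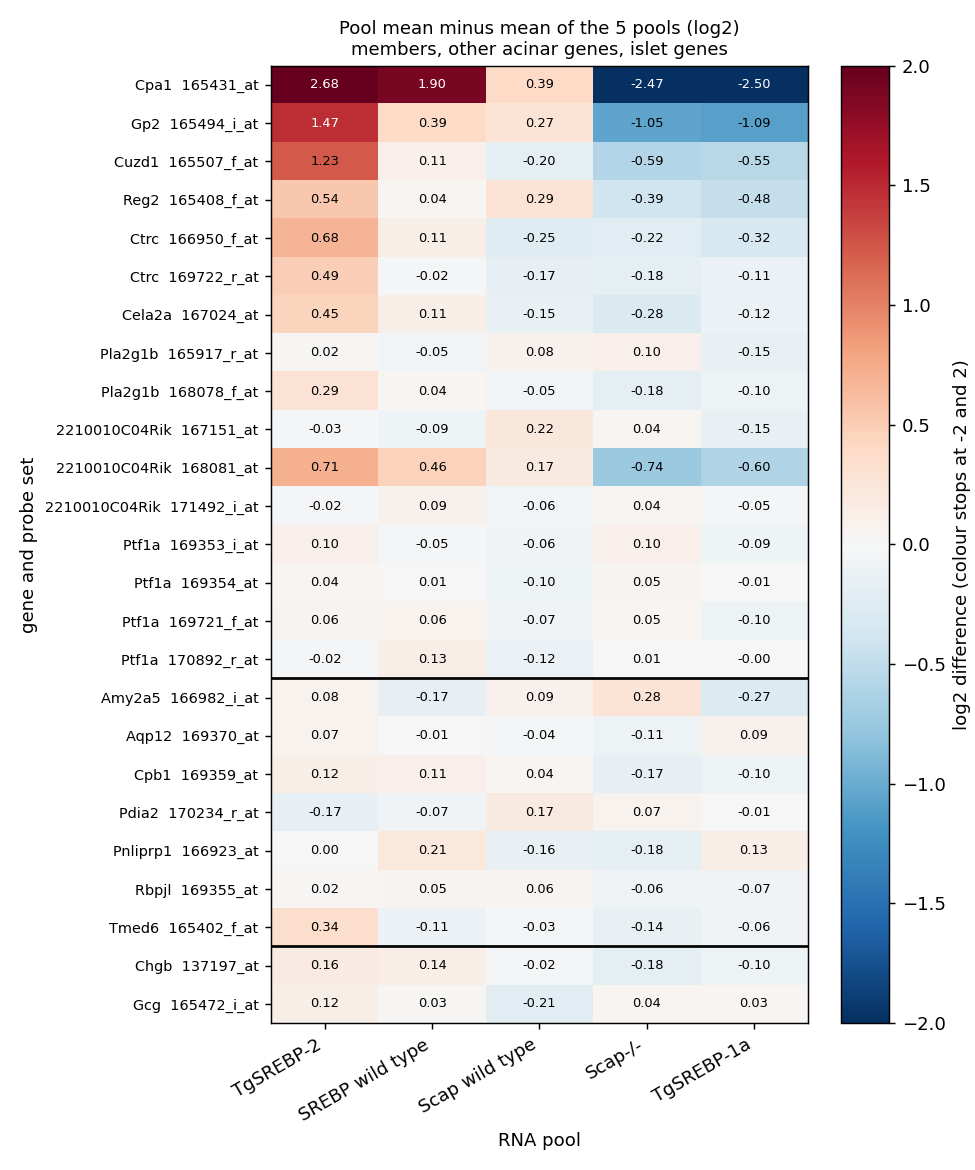
Pool mean minus the mean of the 5 pools (log2; colour and printed value) for the 16 member probe sets (upper block), 7 other acinar genes (middle block) and 2 islet genes (lower block), in the 5 pools. Cpa1 runs from 2.68 in TgSREBP-2 to -2.50 in TgSREBP-1a, and Rbpjl stays between -0.07 and 0.06.

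A probe set was called different when the moderated test of limma gave an adjusted p under 0.05 over all tested probe sets and the groups differed by 1.5-fold or more. Since the genes were selected on these contrasts, the calls follow in part from that choice, and nothing is read from their counts. In Scap-/- against Scap wild type 2 of the 16 probe sets were called, Cpa1 and Gp2, both lower, where 0.0843% of all probe sets were called in either direction. In TgSREBP-1a against SREBP wild type 4 were called, all lower (Cpa1, Gp2, Cuzd1 and 168081_at of 2210010C04Rik), with 1.04% of all called. In TgSREBP-2 against the same wild type 2 were called, Gp2 and Cuzd1, both higher, with 0.118% of all called. In TgSREBP-1a against TgSREBP-2 6 were called, all lower (Cpa1, Gp2, Cuzd1, Reg2, 166950_f_at of Ctrc and 168081_at), with 0.514% of all called. In Scap wild type against SREBP wild type Cpa1 alone was called, lower, with 0.0927% of all called. When each gene was represented by its brightest probe set, 2, 3, 2, 4 and 1 of the 9 genes were called in these comparisons, in the order given.

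Several of these calls changed when 1 array was left out. The call of Gp2 in Scap-/- was lost without the second Scap-/- array, at -1.14, or without the first Scap wild type array, at -1.17. In TgSREBP-2 against SREBP wild type, Gp2 was no longer called without any 1 of 5 arrays (the second SREBP wild type array and both arrays of each transgenic pool), with differences of 0.90 to 1.18. The call of Cpa1 between the wild-type pools was lost without either Scap wild type array, at -1.50 and -1.51. Cuzd1 in TgSREBP-1a against SREBP wild type and Reg2 in TgSREBP-1a against TgSREBP-2 were each lost without any 1 of the 4 arrays compared. Cpa1 in TgSREBP-2 was called, at 1.14, when the first SREBP wild type array was left out, and Reg2 in Scap-/-, at -0.97, without the second Scap-/- array.

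A looser count asks only whether the arrays of the 2 groups did not overlap. In Scap-/- this held for 8 of the 16 probe sets, 6 lower and 2 higher, the latter both of Ptf1a, where it held for 29.7% of all probe sets. In TgSREBP-1a it held for 10, all lower (39.4% of all), and in TgSREBP-2 for 9, of which 8 were higher (35% of all). Between the transgenic pools it held for 11, all lower in TgSREBP-1a (37% of all), and between the wild-type pools for 9, of which 7 were lower in Scap wild type (37.5% of all). The median difference of the 16 probe sets was -0.07 in Scap-/-, -0.15 in TgSREBP-1a and 0.25 in TgSREBP-2, each against its wild type. It was -0.48 between the transgenic pools and -0.14 between the wild-type pools. The median of all probe sets ran from -0.03 in TgSREBP-1a to 0.0007 in Scap-/-.

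The order of the pools was then compared probe set by probe set with that of Cpa1, by counting how many of the 10 pairs of pools stood the same way round. Of the 15 probe sets other than that of Cpa1, 1 had all 10 pairs, as did 1.15% of all probe sets, and 6 had 9 or 10 pairs, as did 5.67% of all. For Cpa1 itself the arrays of Scap-/- and TgSREBP-1a overlapped, so the order of this pair carries little information. Gp2 had 9 pairs without the second Scap wild type array or without the first SREBP wild type array. Gp2, the 1 with all 10 pairs, and Cuzd1, among the 6, had been chosen with Cpa1 on calls between these pools. The other members were also chosen with earlier results of these data known. The shared order follows in part from these choices, so these counts are a description. TgSREBP-2 was the highest pool for 9 of the 15 (23% of all), and TgSREBP-1a the lowest for 7 (24.9% of all). TgSREBP-1a and Scap-/- were the 2 lowest pools for 5 of the 15, against 11.2% of all. The median was 8 pairs for the 15 probe sets and 5 for all probe sets.

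The enzymes and granule proteins were next set beside Ptf1a, and the difference between them was not tested. Of the 11 probe sets of the 7 genes other than Cpa1 and Ptf1a, 6 had 9 or 10 pairs in the order of Cpa1, 8 had their highest mean in TgSREBP-2 and 5 had TgSREBP-1a and Scap-/- lowest, with a median of 9 pairs. Of the 4 Ptf1a probe sets, 0 had 9 or 10 pairs, 1 had its highest mean in TgSREBP-2 and 0 had TgSREBP-1a and Scap-/- lowest, with a median of 7 pairs. The Ptf1a pool means lay so close together that most neighbours in their order overlapped, and an order among them carries little information. Cela2a and 169722_r_at of Ctrc had 8 pairs, as did 2 of the 4 Ptf1a probe sets, so the counts of pairs overlapped between the enzymes and Ptf1a. The lowest counts among the enzymes were those of 165917_r_at of Pla2g1b and 167151_at and 171492_i_at of 2210010C04Rik, with 5, 6 and 6 pairs. Represented by the mean over a gene's probe sets, Pla2g1b had 9 pairs and 2210010C04Rik 10.

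**Figure D3:**
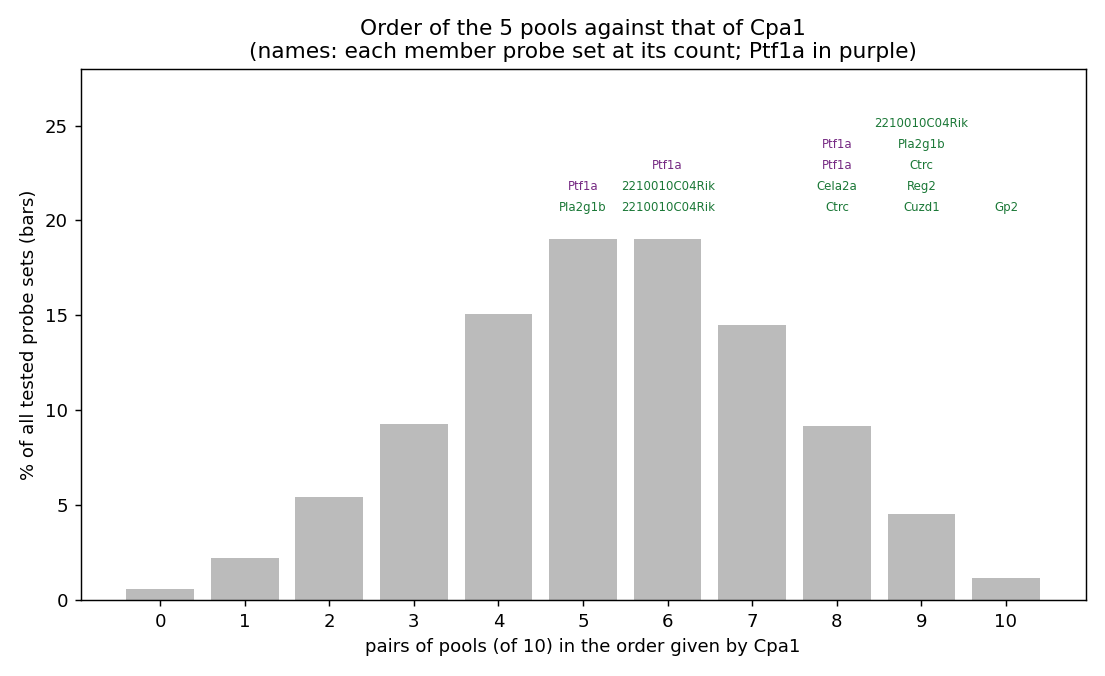
Percentage of all 11868 tested probe sets (bars, vertical axis) by the number of pairs of pools, of 10, that stand in the order given by Cpa1 (horizontal axis), with the name of each of the other 15 member probe sets written above its count, Ptf1a in purple. Gp2 sits at 10 pairs, where 1.15% of all probe sets lie, and the Ptf1a probe sets sit at 5, 6, 8 and 8.

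Likeness to Cpa1 was also measured as Pearson's r over the 10 arrays, which are 5 pools with 2 hybridisations each and so are not 10 independent points. It was 0.966 for 168081_at of 2210010C04Rik, 0.964 for Gp2, 0.863 for Cuzd1, 0.842 for Reg2 and 0.836 for Cela2a. For Pla2g1b it was 0.806 on 168078_f_at and 0.0639 on 165917_r_at, and for Ctrc 0.796 and 0.686. The Ptf1a probe sets ranged from 0.004 to 0.372. Of the 113 probe sets whose pool means spanned at least 1 log2 unit, apart from Cpa1 itself, the 4 with the highest r were 168081_at, Gp2, Cuzd1 and Reg2. Gp2 and Cuzd1 had been chosen, like Cpa1, on calls between these pools. Reg2 and 2210010C04Rik were also chosen with earlier results of these data known. The place of these genes in the ranking follows in part from these choices, and the ranking is a description.

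The named genes outside the acinar set that came closest to Cpa1 in that ranking were B3galt1, a galactosyltransferase, at 0.777, Sdr9c7, a short-chain dehydrogenase, at 0.741, Gfra1, a receptor subunit for GDNF, at 0.736, and Slc3a1, a subunit of the cystine transporter, at 0.719. They were followed by Smlr1, Fga, Lbp and Ugt2b38, with r down to 0.527. B3galt1 and Sdr9c7 each had 9 of the 10 pairs of pools in the order of Cpa1, as many as Cuzd1 and Reg2. A probe set without a gene name, 168288_f_at (r = 0.732), also had 9 pairs, with Scap-/- and TgSREBP-1a lowest. The order was therefore not limited to the acinar genes. B3galt1 had means of 7.18 in TgSREBP-2, 7.58 in SREBP wild type, 6.94 in Scap wild type, 6.83 in Scap-/- and 5.77 in TgSREBP-1a. Sdr9c7 had means of 8.12, 7.57, 7.13, 7.22 and 4.89 in the same pools. Both were low in TgSREBP-1a alone, with Scap-/- near Scap wild type, where Cpa1 was low in both pools.

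The excess of each pool over the lowest one was next set on a linear scale, as a share of the excess in TgSREBP-2, for the 8 member probe sets with TgSREBP-2 highest and pool means spanning at least 0.5 log2 units. The shares describe how the genes compare within a pool, and low signals on the array are compressed. For Cpa1 the mean signals were 1628 in TgSREBP-2, 947 in SREBP wild type, 334 in Scap wild type, 46.0 in Scap-/- and 45.0 in TgSREBP-1a, in the array's arbitrary units. The share was thus 57.0% in SREBP wild type, with 74.0% and 43.7% on its 2 arrays, and 18.2% in Scap wild type.

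For the other 7 probe sets the share in SREBP wild type ran from 19.4% for 169722_r_at of Ctrc to 75.3% for 168081_at of 2210010C04Rik. In Scap wild type it ran from 1.17% for 169722_r_at to 69.0% for Reg2. Gp2 had shares of 36.6% and 32.0% in the 2 wild-type pools, Cuzd1 24.5% and 12.3%, and Cela2a 47.6% and 14.2%. SREBP wild type had the larger share for 7 of the 8 probe sets, the exception being Reg2 with 42.3% and 69.0%. These 8 were kept by their own pool means, so this count is a description. Among the probe sets left out, 167151_at and 165917_r_at had higher means in Scap wild type, and the rest had higher means in SREBP wild type. Over all 11868 probe sets, 2788 had both Scap wild type arrays below both SREBP wild type arrays, and 1659 had them above. For 168081_at the SREBP wild type arrays gave 92.8% and 59.8%, and for 169722_r_at 34.3% and 5.62%. Whether the shares differ between genes was not tested.

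**Figure D4:**
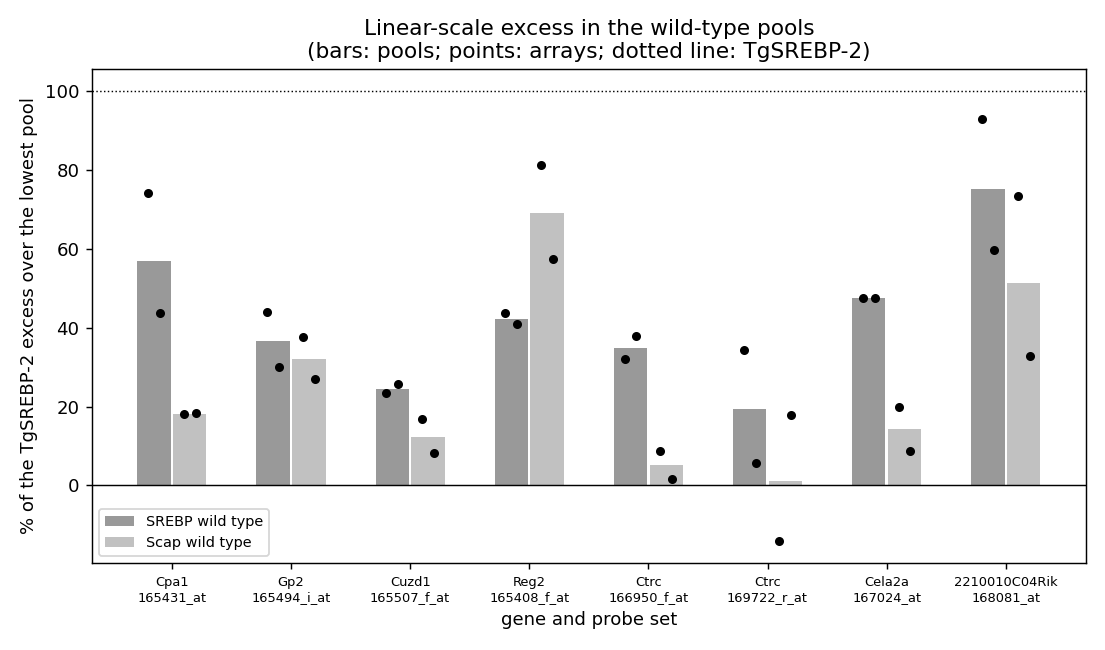
Excess over the lowest pool on the linear scale, as a percentage of the excess in TgSREBP-2 (dotted line at 100), for 8 member probe sets, with bars for the SREBP wild type and Scap wild type pools and points for their arrays. Cpa1 stands at 57.0% and 18.2%, and Reg2 is the 1 probe set with the higher bar in Scap wild type (69.0% against 42.3%).

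Other acinar genes, from lists drawn up by function, followed the order of Cpa1 less closely as values, a difference that was not tested. The members were chosen with results of these pools known, so a gap in this direction follows in part from that choice. Of the 50 other acinar genes listed, 7 were measured. Among the 7, 1 (Cpb1) had 9 or 10 pairs in that order (5.67% of all probe sets) and 2 had their highest mean in TgSREBP-2 (23% of all). TgSREBP-1a and Scap-/- were lowest for 2 of the 7 (11.2% of all). The median was 6 pairs for the 7 genes and 5 for all probe sets. By the limma test, 0 of the 7 were called in any of the 5 comparisons, with 0, 0, 1, 2 and 1 of them at an unadjusted p under 0.05. The lowest adjusted p (Benjamini-Hochberg over all probe sets) was 0.999 in Scap-/-, 0.786 in TgSREBP-1a and 0.257 in TgSREBP-2. It was 0.211 between the transgenic pools and 0.636 between the wild-type pools.

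Cpb1, the pancreatic carboxypeptidase B, had pool means of 2.80 to 3.09. Amy2a5, a pancreatic amylase, had 2.62 to 3.18, and Pnliprp1, a lipase-related protein, had 3.31 to 3.70. These abundant acinar products lay far below the array medians in all 5 pools, TgSREBP-2 included, and without detection calls such values may be background. Serpina1a, of the hepatocyte list, also lay far below the array medians, at 3.23 to 3.58. Rbpjl, the acinar partner of PTF1A, had 3.39 to 3.51, Pdia2, a disulfide isomerase of pancreas, 2.76 to 3.11, and Aqp12, an acinar aquaporin, 4.67 to 4.87. Tmed6, a cargo protein of the secretory pathway, was the 1 gene of the 7 with its TgSREBP-2 arrays above all others. It read 3.38 and 3.19 in TgSREBP-2 and 2.69 to 2.93 on the 8 other arrays, a difference of 0.46 ± 0.11 from SREBP wild type (limma adjusted p = 0.257).

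Markers of the tissues next to the acinar cells were looked at in the same fit. Of 23 islet genes 2 were measured, Gcg (glucagon) at pool means of 5.00 to 5.33 and Chgb (chromogranin B) at 4.94 to 5.28, and limma called 0 of them in any comparison (0 or 1 at an unadjusted p under 0.05). Of 14 duct genes 3 were measured, and Epcam alone was called: its probe set 170480_at was lower in TgSREBP-1a than in SREBP wild type by -0.63 ± 0.09 (limma adjusted p = 0.00538), while its other 2 probe sets differed by 0.05 and 0.01. That probe set read 7.82 and 7.87 in TgSREBP-1a and 7.90 and 7.99 in TgSREBP-2, against 8.45 to 8.60 on the 6 other arrays, so it was low in both transgenic pools, unlike Cpa1. Of 22 stomach and intestine genes 3 were measured and limma called 0, with 0 at an unadjusted p under 0.05. Among these markers, Atp4a (the gastric proton pump) had all 10 pairs of pools in the order of Cpa1 and Chgb had 9, both with Scap-/- and TgSREBP-1a lowest. The pool means of Atp4a lay between 5.34 and 5.45, and its SREBP wild type arrays enclosed those of all other pools. The part of these tissues in the acinar signals was not tested.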

How the data were processed

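Each of the 5 RNA pools was hybridised to 2 arrays. The authors made the values they deposited with RMA, per the submitters' processing notes, without a version (RMA corrects background, normalises across arrays and summarises probes); the design text names Microarray Suite 5.0. The deposited values were taken as log2 signals from their range and the near-equal array medians, and all 10 columns were mapped to samples by their names.

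Of 11934 probe sets, 66 controls were left out. Of the 11868 tested, the platform annotation gives 1 gene for 7717, several for 150 and none for 4001. Limma 3.58.1 in R 4.3.3 fitted all 10 arrays and 5 groups at once (lmFit, eBayes; 5 residual and 6.26 prior degrees of freedom), two-sided, with Benjamini-Hochberg adjustment over all tested probe sets. It was also run on simulated data, whose noise was independent between arrays and held no deviation shared by same-numbered arrays. A gene with several probe sets was counted by its brightest one. The median SE was 0.11, and the number of arrays limits the precision.

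The members and gene lists were chosen with earlier results of these data known. Named were all members, measured other acinar genes, the 8 singly annotated probe sets most like Cpa1 (r over 10 arrays, span of at least 1 log2 unit, clone and predicted names left out), and Scap, Srebf1 and Srebf2 if measured. Tmed6, Pmvk, Epcam, Fga, Tdo2, Hsd17b4, Serpina1a, Abcg8, Klb, Lbp, Serpina11, Gcg, Chgb, Atp4a and 168288_f_at were named as list members or for context after their values were seen. Alternatives were 2 normalisations, brighter or plain _at probe sets, a mean over a gene's probe sets, other fold floors, a variance trend, arrays of 1 study, a replicate block and each array left out.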

Additional observations from a re-analysis of the deposited data

Results flagged for a closer look

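In 7 of the 16 acinar probe sets, both TgSREBP-1a arrays lay below and both TgSREBP-2 arrays lay above both SREBP wild type arrays. The 2 transgenic groups thus lay on opposite sides of the wild type they share. That pattern held for 205 of the 11868 tested probe sets (1.73%). The log2 difference of TgSREBP-1a from TgSREBP-2 was -5.18 for Cpa1, -2.56 for Gp2, -1.78 for Cuzd1, -1.02 for Reg2, -0.998 for 166950_f_at of Ctrc, -0.572 for Cela2a and -0.387 for 168078_f_at of Pla2g1b. The limma fit called this difference for the first 5 of them and not for Cela2a and 168078_f_at. Against SREBP wild type, only Gp2 and Cuzd1 of them were called in both transgenic pools. Cpa1 was called in TgSREBP-1a alone, and Reg2, 166950_f_at, Cela2a and 168078_f_at were called in neither pool. Since the genes were chosen on these contrasts and each transgenic group is 1 pool, these calls are a description.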

How the results depend on the processing

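The count of member genes called, by brightest probe set, was 2 in Scap-/-, 3 in TgSREBP-1a and 2 in TgSREBP-2, each against its wild type, 4 between the transgenic pools and 1 between the wild-type pools. Among brighter probe sets alone the count was 1 in TgSREBP-2 and 2 between the transgenic pools. With plain _at probe sets alone, which leave out most of these genes, it was 1 in Scap-/-, 1 in TgSREBP-1a, 0 in TgSREBP-2 and 1 between the transgenic pools. The number of member genes lowest in TgSREBP-1a then fell from 5 to 2 and of those highest in TgSREBP-2 from 6 to 2. With arrays of the same study only, the count in Scap-/- was 1. With 1 array left out it ran from 1 to 2 in Scap-/-, 2 to 3 in TgSREBP-1a, 1 to 3 in TgSREBP-2, 3 to 4 between the transgenic pools and 0 to 1 between the wild-type pools. The genes lowest in TgSREBP-1a then numbered 2 to 5 and those highest in TgSREBP-2 6 to 8. The median number of pairs in the order of Cpa1 per gene, 8, was 7.5 under median centring, 9 with the mean over a gene's probe sets and 7.5 to 8.5 without 1 array. It fell to 7 among brighter probe sets alone and to 6 with plain _at probe sets alone. The mean over probe sets raised Pla2g1b from 5 to 9 pairs and 2210010C04Rik from 6 to 10, and leaving out 1 array gave 3 to 7 for each. Other acinar genes were called 0 times in each setting run. With any probe set of a gene, a setting chosen after seeing the data, the counts were 2, 4, 2, 6 and 1. With the replicate block they were 2, 3, 2, 5 and 1, and calls among all probe sets rose from 10, 123, 14, 61 and 11 to 19, 186, 37, 96 and 36. The block added Ctrc between the transgenic pools. Same-numbered arrays deviated together with r of 0.20 to 0.33 in 7 of 10 pairs of pools and of -0.17 to -0.11 in the 3 that join TgSREBP-2 with TgSREBP-1a, Scap wild type or Scap-/-, so the numbers were not taken as pairs. The crossed pairing of TgSREBP-2, also chosen after seeing the data, gave 4 between the transgenic pools. The sign of Gp2 between the wild-type pools held in 13 of 15 settings (-0.30 to 0.06), and the differences of Cpa1, Gp2 and Cuzd1 in the other comparisons kept theirs in every setting run. The linear shares moved by at most 6.17 percentage points under the 2 other normalisations. Where a count changed, the cause was not tested. Signals near the bottom of the scale, with no detection calls, limit Cuzd1 and 3 of the Ptf1a probe sets.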
